A study of Mus musculus with 9 samples.

Results

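The cytosolic ribosomal protein (RP) genes encode the proteins of the ribosome that translates nuclear-encoded mRNA. They were taken by name, as symbols that begin with Rpl or Rps and a number, together with Rplp0, Rplp1, Rplp2 and Rpsa, without pseudogene symbols and without the S6 kinases. 85 RP genes were found among the 20035 genes named in the peak lists. 42 of them belong to the large subunit, 31 to the small subunit with Rpsa, 3 to the P-stalk and 9 are paralogs or retrogenes such as Rpl22l1, Rps27l and Rps27rt. The data were lists of open chromatin peaks from Omni-ATAC-seq, an assay that marks DNA free of nucleosomes by letting the Tn5 transposase cut and tag it. A peak whose centre lay within 1000 bp of the annotated transcription start site (TSS) of the gene was counted as its promoter peak. Where a gene had several, the one with the highest −log10 p was used.

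Nuclei came from sorted live brain endothelial cells (ECs) of mice on the C57BL/6J background. All 4 groups carried the tamoxifen-inducible VE-cadherin Cre and received tamoxifen. The WT Cre controls had unmodified Klf4, and the EC-K4KO mice had floxed Klf4, so that KLF4, a zinc finger transcription factor, was removed from ECs. VE-cadherin is expressed by ECs of every organ, so the deletion was not limited to the brain. There were 9 libraries, 3 of young EC-K4KO mice and 2 of each other group, and the comparisons ask what KLF4 loss and age do to chromatin accessibility. The study calls the libraries biological replicates, but the labels do not say that replicates came from separate animals. The p-values therefore measure the spread between these libraries only.

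A ribosome is built from a small subunit, which decodes the mRNA, and a large subunit, which forms the peptide bond. Nearly all of its proteins are made in equal number from separate genes, which are among the most highly transcribed in every cell. Many of these genes start transcription at a C inside a run of pyrimidines, and the resulting terminal oligopyrimidine (TOP) tract places translation of their mRNAs under control of mTOR. Many also carry small nucleolar RNA (snoRNA) genes in their introns.

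The lists differed greatly in length, and this bears on every count below. Young WT Cre lists held 6157 and 9598 peaks, young EC-K4KO lists 23848 to 27992, old WT Cre lists 32555 and 43893 and old EC-K4KO lists 39079 and 45026. Read numbers behind the lists were not analysed here, so depth is unknown, and fewer open cells and less opening per cell cannot be told apart. Age and the first part of the library name (A1 in young, A2 in old) cannot be told apart either. Of 12 endothelial marker genes, 6 to 11 had a promoter peak in each library, against none of 8 microglial and none of 8 neutrophil markers. Pericyte and mural markers had 0 of 8 in the young libraries and in old WT Cre replicate 1, 2 in old WT Cre replicate 2, and 5 and 4 in old EC-K4KO. Neuronal markers ranged from 0 to 5 of 8, astrocyte markers from 0 to 3 and oligodendrocyte and erythroid markers from 0 to 2. Whether other cells add to the RP values was not tested. Klf4 itself had a promoter peak in all 9 libraries, which does not check the deletion because a promoter peak can remain when exons are removed.

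The promoter stretches below were chosen as among the strongest or weakest RP promoters found in all 9 libraries, or as differing between groups. They were read from RefSeq promoters of assembly GRCm38.p6, the build of the peaks (mm10), and run 5′ to 3′ on the gene strand from 80 bases before the TSS to 20 bases from the TSS on. Capitals mark a TOP-like tract or a match to one of 9 short motifs described later. Rps19, Rpl13a and Rpl27 had the strongest promoter peaks among RP genes. Their stretches lie at chr7:24884512-24884611 on the plus strand, chr7:45128726-45128825 on the minus strand and chr11:101442165-101442264 on the plus strand. Rps16 and Rps6 differed between groups, and lie at chr7:28350609-28350708 on the plus strand and chr4:86857348-86857447 on the minus strand. Rps26, Rps27l and Rps7 were among the 6 weakest of the 28 RP genes with a promoter peak in all 9 libraries, and lie at chr10:128626487-128626586 on the minus strand, chr9:66946006-66946105 on the plus strand and chr12:28635934-28636033 on the minus strand. The Rps27l stretch is at the start of most of its curated transcripts, which is downstream of the annotated start of the gene. A peak overlapped each of the 8 stretches in all 9 libraries.
Rps19: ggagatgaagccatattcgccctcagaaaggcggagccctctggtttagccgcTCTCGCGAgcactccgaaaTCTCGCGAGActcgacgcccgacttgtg
Rpl13a: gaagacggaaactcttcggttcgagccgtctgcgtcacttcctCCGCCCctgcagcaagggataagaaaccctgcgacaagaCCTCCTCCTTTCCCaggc
Rpl27: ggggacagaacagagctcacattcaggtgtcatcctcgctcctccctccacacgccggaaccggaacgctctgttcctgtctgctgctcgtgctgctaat
Rps16: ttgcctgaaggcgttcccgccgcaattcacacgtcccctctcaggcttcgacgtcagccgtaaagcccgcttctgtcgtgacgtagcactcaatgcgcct
Rps6: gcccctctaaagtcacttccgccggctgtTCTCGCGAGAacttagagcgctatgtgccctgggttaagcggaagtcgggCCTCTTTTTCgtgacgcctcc
Rps26: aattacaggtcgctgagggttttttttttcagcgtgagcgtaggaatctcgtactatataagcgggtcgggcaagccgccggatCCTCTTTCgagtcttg
Rps27l: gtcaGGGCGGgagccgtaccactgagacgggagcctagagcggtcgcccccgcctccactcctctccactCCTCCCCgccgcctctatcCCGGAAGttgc
Rps7: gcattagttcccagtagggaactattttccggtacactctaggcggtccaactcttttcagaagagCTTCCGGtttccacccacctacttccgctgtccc

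A promoter peak was listed for a larger share of RP genes than of all genes in every library. It was present for 34 and 50 of the 85 RP genes in young WT Cre, for 63, 72 and 72 in young EC-K4KO, for 74 and 73 in old WT Cre and for 73 and 73 in old EC-K4KO. The group means were 42 ± 11.3 (SD, n = 2), 69.0 ± 5.20 (n = 3), 73.5 ± 0.707 (n = 2) and 73.0 ± 0 (n = 2). The young WT Cre lists were lowest and did not overlap any other group, and the old groups overlapped each other. As shares, these means were 49.4%, 81.2%, 86.5% and 85.9% of RP genes, beside 23.2%, 44.8%, 50.8% and 53.5% of all genes named. The mitochondrial ribosomal protein genes, whose products form the separate ribosome of mitochondria, had 26.1%, 68.6%, 81.9% and 81.9% (69 genes). A high share was not particular to RP genes: 21 translation factors and other TOP mRNA genes had 66.7%, 92.1%, 97.6% and 100%, and 19 ribosome biogenesis genes had 50%, 91.2%, 97.4% and 100%.

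**Figure D1:**
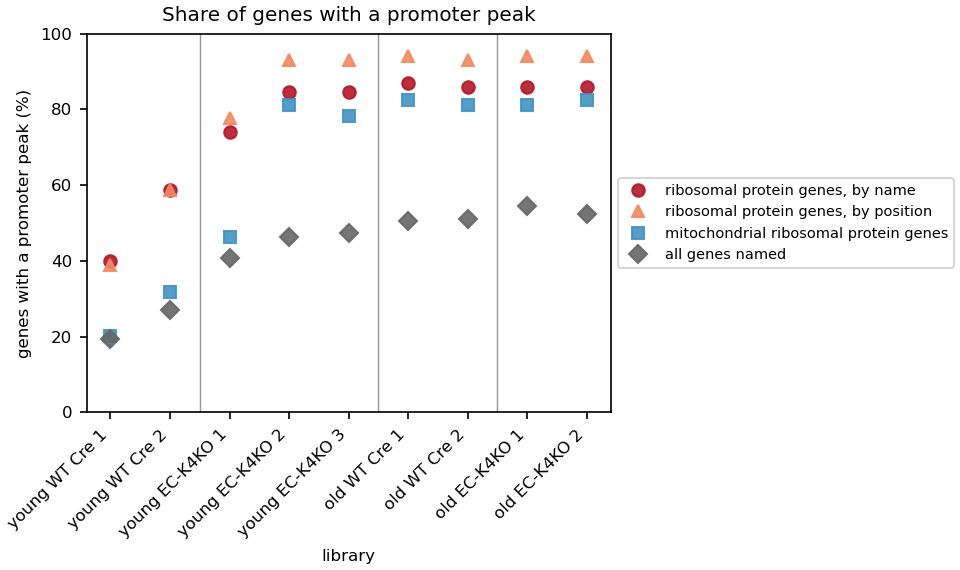
Share of genes with a promoter peak (y axis, %) in each of the 9 libraries (x axis), for RP genes by the name the annotation gave and by position, for mitochondrial ribosomal protein genes and for all genes named. The RP share by name runs from 40.0% in young WT Cre replicate 1 to 87.1% in old WT Cre replicate 1 and is above the share of all genes in each library.

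The length of the lists moved with these counts. When each list was reduced to its 6157 strongest peaks, the length of the shortest, 34 and 39 RP genes had a promoter peak in young WT Cre, 39, 43 and 49 in young EC-K4KO, 46 and 46 in old WT Cre and 45 and 44 in old EC-K4KO. The difference of young EC-K4KO from young WT Cre was then 7.17 genes instead of 27.0, and that of old WT Cre from young WT Cre 9.5 instead of 31.5. Young WT Cre replicate 2 and young EC-K4KO replicate 1 were level at this length.

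28 RP genes (32.9%) had a promoter peak in all 9 libraries, beside 12 mitochondrial ribosomal protein genes (17.4%), 11 translation factors and other TOP mRNA genes (52.4%), 5 ribosome biogenesis genes (26.3%) and 16.3% of all genes. They included the P-stalk genes Rplp0 and Rplp1, which help to recruit the translation factors that hydrolyse GTP, and Rpsa, a small subunit protein also known as the laminin receptor. Rplp2, the partner of Rplp1, lacked a peak only in young WT Cre replicate 1. 62 RP genes (72.9%) had a peak in at least 7 libraries.

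The missing peaks fell mostly in the young WT Cre lists. 16 genes lacked a promoter peak only in young WT Cre replicate 1, namely Rpl3, Rpl9, Rpl10a, Rpl14, Rpl19, Rpl23, Rpl24, Rpl28, Rpl35, Rpl39, Rplp2, Rps3a1, Rps13, Rps15, Rps15a and Rps23. Rpl31 and Rpl5 lacked one only in young WT Cre replicate 2. Rpl5, with Rpl11, carries the 5S rRNA and binds the p53 regulator MDM2. 12 genes lacked a peak in both young WT Cre lists and in no other, among them Rpl13, Rpl29, Rpl32, Rpl35a, Rpl36a, Rpl37a, Rpl7l1, Rps10, Rps24, Rps3 and Rps9. A further 6, Rpl12, Rpl23a, Rpl36, Rpl38, Rpl6 and Rps4x, lacked one in young EC-K4KO replicate 1 as well, the shortest of the young EC-K4KO lists. Rpl11 lacked a peak in young WT Cre replicate 1 and young EC-K4KO replicate 1.

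The heat map of fold enrichment shows the same order. Fold enrichment is the ratio of reads over the expected background that the peak caller averaged over the peak. Of the 70 RP genes with a promoter peak in all 4 old libraries, 32 (45.7%) and 48 (68.6%) had one in the young WT Cre lists, and 58 (82.9%), 68 (97.1%) and 69 (98.6%) in the young EC-K4KO lists. The corresponding shares were 39.7% and 55.0%, and 77.3%, 91.6% and 93.7%, for all 9182 such genes. Within the RP genes, the 20 found in neither young WT Cre list had a median over genes of 8.23 for the mean fold in the old libraries, the 20 found in 1 list had 9.48 and the 30 found in both had 10.1. Genes with weaker peaks in old libraries were thus more often absent from the short lists, and the medians over all genes showed the same order with 6.21, 7.93 and 9.46.

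**Figure D2:**
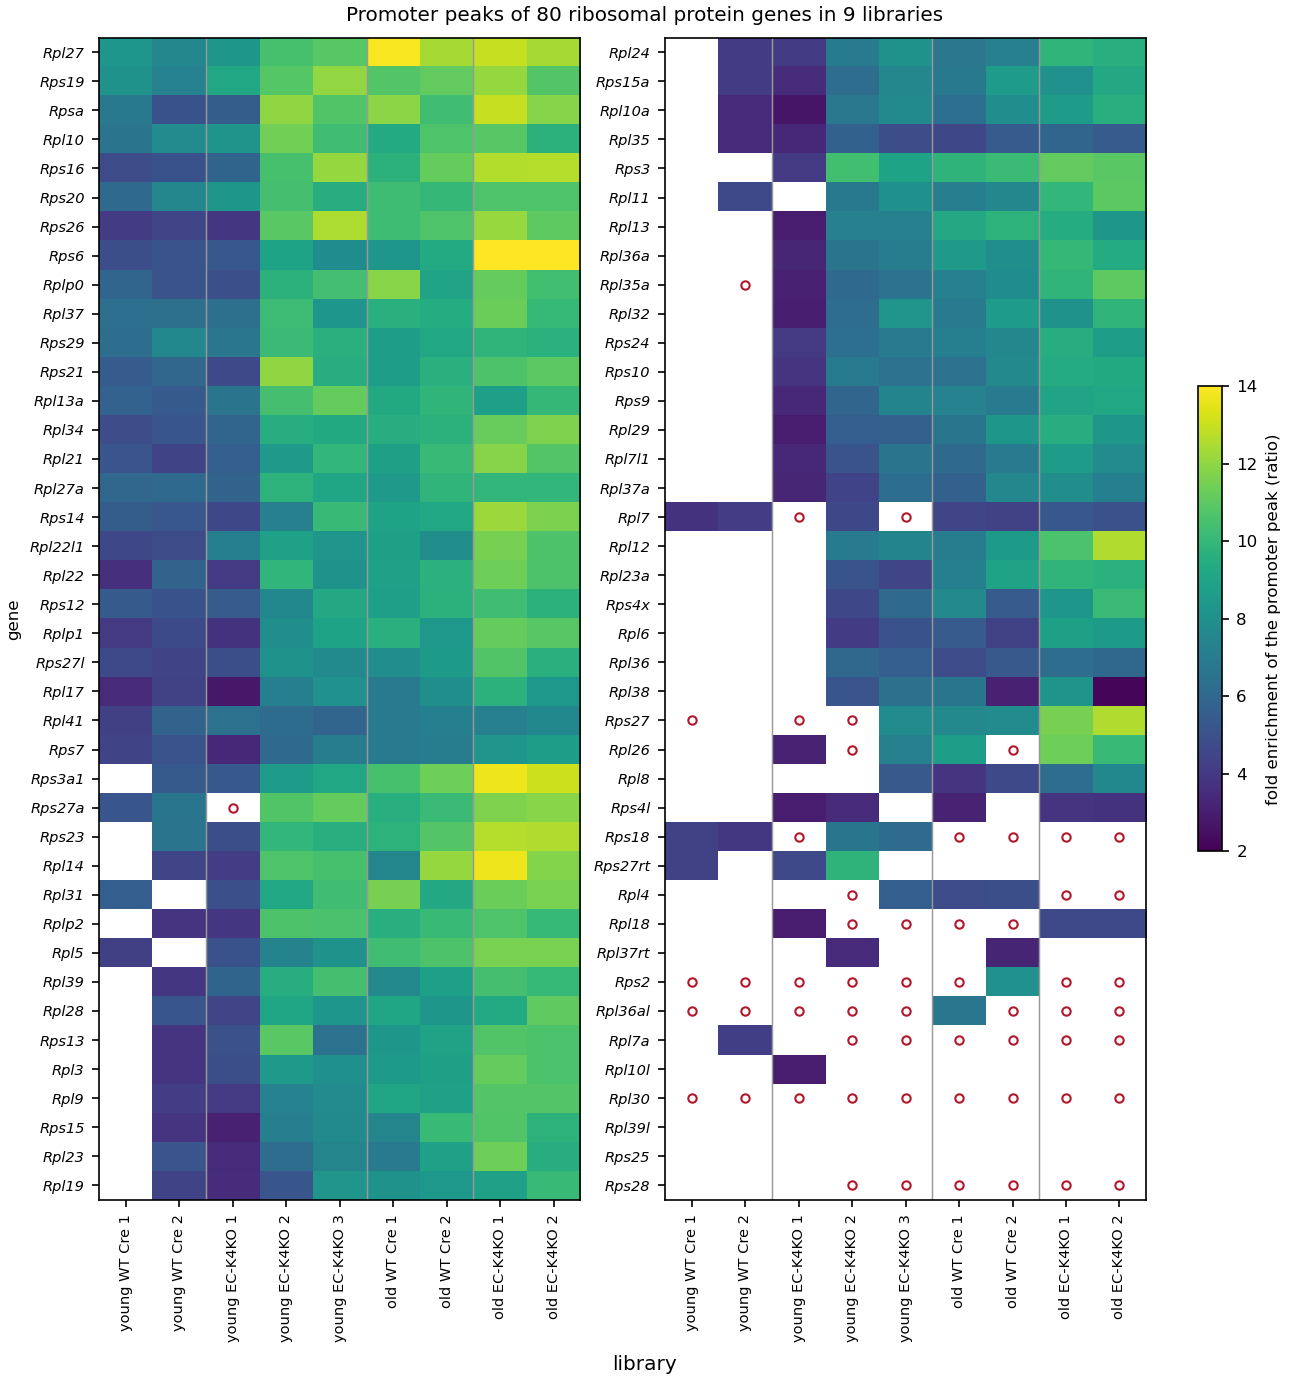
Fold enrichment of the promoter peak (colour, ratio) for 80 of the RP genes (y axis) in each of the 9 libraries (x axis), ordered by the number of libraries with a peak. White marks no promoter peak under that name, and a red circle marks a peak over the TSS that carries the name of another gene. The 25 of them with a peak in all 9 libraries are at the top left, and Rpl30, listed under no library by name, has circles in all 9.

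RP genes lie close to other genes, and part of the absences were a matter of names. A TSS of another gene was within 1000 bp for 27 of 84 RP genes (32.1%), beside 15.1% of 16361 protein-coding genes, and 30 of the 84 (35.7%) held snoRNA genes, beside 1.97%. By position, a peak covered the TSS of 33 and 50 RP genes in young WT Cre, 66, 79 and 79 in young EC-K4KO, 80 and 79 in old WT Cre and 80 and 80 in old EC-K4KO. The mean shares were then 48.8%, 87.8%, 93.5% and 94.1%, beside 21.7%, 45.4%, 51.5% and 55.1% of all genes.

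Several genes that gained from this count had a close neighbour. Rpl30, a large subunit protein, had no promoter peak by name, and its TSS lay under a peak named Gm12191 in 9 libraries, although no other RefSeq TSS lay close to Rpl30. Rps2 carried the name of Snhg9 in 8 libraries, Rpl36al that of Mgat2 in 8, Rpl7a that of Med22 in 6 and Rps28 that of Ndufa7 in 6. Rps18 carried the name of Vps52 in 5 libraries, Rpl18 that of Sphk2 in 4, Rpl4 that of Zwilch in 3 and Rps27 that of Rps27rt in 3. Rpl26 and Gm15772, and Rpl7 and Rdh10, were exchanged in 2 libraries each, and Rpl35a and Rps27a in 1. Rps27a encodes ubiquitin fused to a small subunit protein. By position 5 genes had no peak in any library used here, namely Rps25 and the paralogs or retrogenes Rpl10l, Rpl37rt, Rps27rt and Rpl39l. Rps27rt had a promoter peak by name in 3 libraries though no peak covered its own start, and peaks of that name lay over Rps27. Near-identical copies such as Rps27 and Rps27rt may also share reads, so their values are uncertain. Rps4l and Rpl8 had peaks by name in 5 libraries each.

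RP peaks sat on the start site. The TSS region with the highest coverage was 0 to 80 bp upstream of the start, and there a peak covered 40.0% and 57.6% of RP genes in young WT Cre, 80%, 92.9% and 92.9% in young EC-K4KO, 94.1% and 92.9% in old WT Cre and 94.1% and 94.1% in old EC-K4KO. All genes reached 17.1% to 53.4%. The centre of the promoter peak was within 100 bp of the TSS for 50% to 66.0% of RP genes with a peak, depending on the library, beside 44.0% to 48.9% of all genes. Among genes with a promoter peak in all 9 libraries, the median RP peak was shorter than the median of all genes in each, from 331 against 385 bp in young WT Cre replicate 1 to 679.5 against 758 bp in old EC-K4KO replicate 1. These traits were not particular to RP genes. Mitochondrial ribosomal protein genes reached a coverage of 94.2% to 98.6% in the old libraries and 21.7% to 89.9% in the young. Their share with a centre within 100 bp was 42.9% to 70.2%. It was 43.8% to 71.4% for translation factors and other TOP mRNA genes and 50% to 72.2% for ribosome biogenesis genes. The median mitochondrial peak was 332.5 bp in young WT Cre replicate 1 and 632 bp in old EC-K4KO replicate 1.

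**Figure D3:**
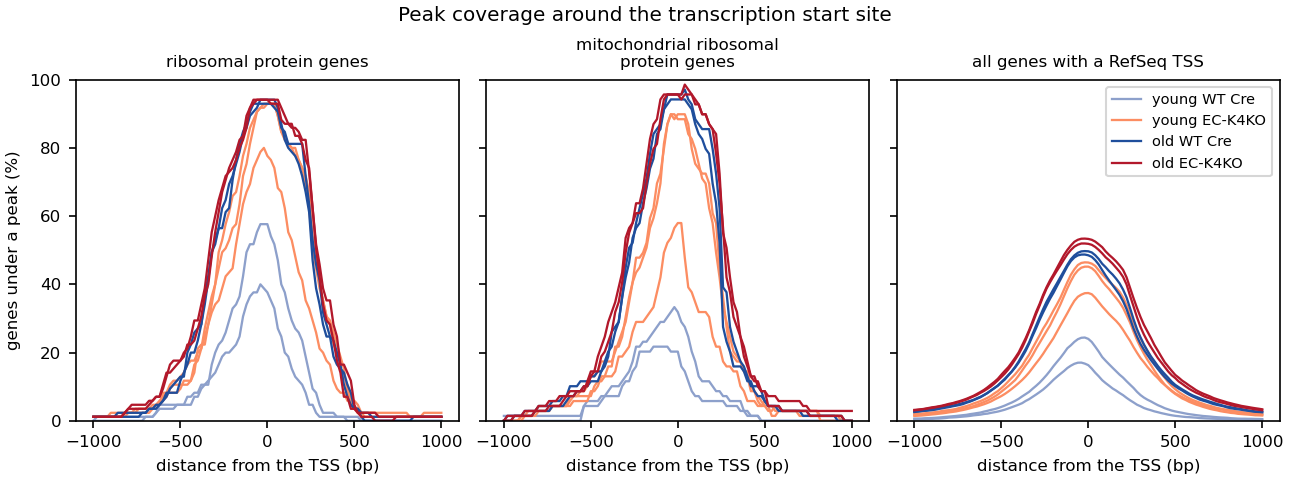
Share of genes whose position at a given distance from the TSS (x axis, bp, upstream negative) lies under a peak (y axis, %), with a line for each library coloured by group, for RP genes, mitochondrial ribosomal protein genes and all genes with a RefSeq TSS. RP coverage is highest within 80 bp upstream of the start, at 94.1% in both old EC-K4KO libraries and at 40.0% and 57.6% in young WT Cre.

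Width varied between RP genes. Averaged over the libraries with a peak, Rpl7 had the longest, with a mean of 1531 bp over 7 libraries. It was followed by Rpl38 with 1168 bp and Rpl10l with 1024 bp in 1 library. The nearest start of Rdh10 lay 1449 bp from that of Rpl7, within reach of only the longer Rpl7 peaks. Rpl7a with 202 bp in 1 library and Rpl37rt with 243 bp in 2 were shortest. Rpl38 changed form between libraries: its peak was 192 bp long at a fold of 3.09 in old WT Cre replicate 2 and 170 bp at 2.19 in old EC-K4KO replicate 2. In young EC-K4KO replicates 2 and 3, old WT Cre replicate 1 and old EC-K4KO replicate 1 it spanned 1633 to 1692 bp. A further region under the name of Rpl38, at chr11:114669319-114670099, was present in 5 libraries with a fold of 3.05 to 9.46. Its median distance from the start was 1207 bp, beyond the promoter window, so the values of the promoter peak leave it out.

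A smaller share of RP peaks than of all peaks lay away from promoters. The share of peaks assigned to RP genes that lay beyond 1000 bp was 22.7% and 16.7% in young WT Cre, 33.3% to 35.1% in young EC-K4KO, 46.0% and 42.1% in old WT Cre and 52.9% and 49.7% in old EC-K4KO, beside 36.8% to 76.8% for all genes. They formed 168 regions near 43 RP genes, of which 99 were seen in 1 library. 5 were present in all 9 libraries, at chr6:148390742-148391951 and chr6:148384274-148384902, which the lists class as intronic and which lay 36504 and 29951 bp downstream of the Rps4l start, beyond the gene, chr3:130833022-130834016 upstream of Rpl34, chr5:115534152-115535194 upstream of Rplp0 and chr2:180251209-180252110 upstream of Rps21. The upstream regions lay at −103198, −24799 and −5714 bp from the start of the gene, and each was given to the gene by distance alone.

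RP promoter peaks were gained against young WT Cre and rarely lost, counting a peak as gained or lost when every library of one group and none of the other had it. From young WT Cre to young EC-K4KO, 12 of 79 RP genes (15.2%) gained a peak, beside 17.3% of all genes, and none lost a peak, beside 0.281%. From young to old WT Cre, 21 of 79 (26.6%) gained a peak, beside 35.4%, and 1, Rps18, lost it, beside 0.483%. From young WT Cre to old EC-K4KO, 23 of 76 (30.3%) gained a peak, beside 40.0%, and Rps18 lost it, beside 0.501%. The RP shares of gains were near or below the background in these comparisons, which share the young WT Cre lists. Part of the gains were also a matter of names. Rpl35a, and in both old groups Rps27, were counted as gained although a peak covered their start in a young WT Cre list. That peak carried the name of Iqcg for Rpl35a and of Rps27rt for Rps27.

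Between the longer lists few RP genes changed in this count. From old WT Cre to old EC-K4KO, Rpl18 gained a peak, beside 2.43% of all genes, and Rpl4 lost one, beside 0.570%. From young to old EC-K4KO no RP gene of 78 gained a peak, beside 5.36%, and none lost one, beside 0.318%. Rpl18 and Rpl4 and the lost peak of Rps18 were exchanges of names, since a peak with the name of Sphk2, Zwilch or Vps52 covered the start of the gene.

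Fold enrichment of RP promoters was above that of genes in general in the old lists. The RP median was 5.17 and 5.03 in young WT Cre, 4.18, 7.35 and 8.03 in young EC-K4KO, 8.32 and 8.66 in old WT Cre and 10.3 and 10.04 in old EC-K4KO. Over all genes with a promoter peak it was 5.06 and 4.92, 4.13, 6.84 and 6.91, 6.36 and 7.10, and 8.03 and 8.15. The RP and all-gene medians were close to each other in young WT Cre and young EC-K4KO replicate 1, and the RP median was higher in the other libraries. Within a library, where 0 is the strongest promoter and 50 the median of all, the RP median rank by fold was 46.8 in the young WT Cre group, 42.2 in the young EC-K4KO group, 27.9 in the old WT Cre group and 25.5 in the old EC-K4KO group. By −log10 p the ranks were 50.1, 42.9, 34.2 and 33.7.

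The high ranks in old lists depended on the genes they were set against. In each library, the 3265 genes with a promoter peak in all 9 had a higher median fold than all genes with one. Among them the median −log10 p rank of the 28 RP genes was 51.2, 51.5, 44.4 and 46.7 in the same order of groups. By fold it was 50.4, 43.7, 42.6 and 35.5. The 28 were spread over 4 equal bins of the −log10 p ranking as 6, 10, 8 and 4 genes from the strongest to the weakest. Among the 6865 genes with a peak in each of the 7 libraries that were not young WT Cre, an alternative chosen after seeing the data, 17, 18, 19 and 4 of 58 RP genes fell in these bins, so few were weak. The 12 mitochondrial ribosomal protein genes found in all 9 libraries had median ranks of 13.9 to 34.4.

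The 28 RP genes with a peak in all 9 libraries spanned the ranking. By mean −log10 p rank among the 3265 genes, Rps19 was strongest at 3.34, followed by Rpl13a at 9.96 and Rpl27 at 14.2. Rps29 at 22.0 and Rpl37 at 23.9 were also among the strongest. Rps19 is a small subunit protein mutated in Diamond-Blackfan anaemia, and Rpl13a is a large subunit protein that also takes part in translational silencing in inflammation. The weakest of the 28 were Rpl17 at 92.8, Rps7 at 88.5, Rps27l at 79.6, Rplp1 at 75.5, Rpl21 at 72.2 and Rps26 at 70.2. Among the 58 RP genes ranked in the 7 libraries that were not young WT Cre, Rpl37a at 84.5, Rpl7l1 at 83.6 and Rpl35a at 78.2 were weakest, and Rps26 stood at 38.5. In the 9 libraries, Rpsa ranked at 36.5 and Rplp0 at 48.9.

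Values of the strongest and of the stalk genes were lowest where the library medians were lowest, but did not follow the medians closely in the other libraries. Rps19 had a fold of 8.13 and 7.34 in young WT Cre, 9.17, 10.9 and 12.1 in young EC-K4KO, 10.8 and 11.1 in old WT Cre and 12.1 and 10.8 in old EC-K4KO. Rpl27 had 8.31 and 7.57, 8.35, 10.5 and 10.9, 13.9 and 12.4, and 13.0 and 12.4. Both were lowest in young WT Cre and young EC-K4KO replicate 1. Rplp0 had 5.90 and 5.08, 4.91, 9.69 and 10.4, 11.8 and 9.02, and 11.2 and 10.4, and Rplp1 had 4.06 and 4.68, 3.74, 7.94 and 8.98, 9.61 and 8.38, and 11.2 and 10.9. Rpsa had 6.86 and 5.03, 5.56, 12.01 and 10.8, 11.9 and 10.3, and 12.9 and 11.8. The medians over the 3265 shared genes were 5.18 and 5.54, 5.55, 9.09 and 9.06, 8.58 and 9.05, and 10.2 and 9.89, so young EC-K4KO replicate 1 stood with young WT Cre.

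Because of these shifts, fold and width were compared between groups relative to the median of the 3265 shared genes in each library, by limma with Benjamini-Hochberg adjustment over all 3265 and a threshold of 0.05 on adjusted p. Differences are on the log2 scale. Without this centring the median of all genes itself differed in fold by 0.49 for young EC-K4KO minus young WT Cre, 0.66 for old minus young WT Cre, 0.16 for old EC-K4KO minus old WT Cre, 0.34 for old minus young EC-K4KO, and also by 0.83 for old EC-K4KO minus young WT Cre. Only the 28 RP genes with a peak in every library were tested. The comparisons share groups and are therefore not independent of each other.

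Few RP genes passed the test in fold, which with 2 or 3 libraries a group does not show that the others did not differ. From young WT Cre to young EC-K4KO 1 of 28 passed, beside 2.54% of all genes. From young to old WT Cre 1 passed, beside 17.3%, and from young to old EC-K4KO 1 passed, beside 6.06%. From young WT Cre to old EC-K4KO 4 passed, 2 higher and 2 lower, beside 24.6%. Between old EC-K4KO and old WT Cre none passed in limma, beside 0% of all genes, and 1 RP gene and 146 of all genes had an unadjusted p under 0.05. None passed for the genotype by age interaction, beside 0%, with 4 RP genes and 272 of all genes at an unadjusted p under 0.05. These counts moved with single libraries, as did those of all genes. Without young EC-K4KO replicate 1, 5, 4 and 9 of 29 RP genes passed in the comparisons of young EC-K4KO, old WT Cre and then old EC-K4KO with young WT Cre, beside 16.2%, 29.0% and 34.8% of all genes. Without either old EC-K4KO library none did, beside 0.336% to 10.2%. Without young WT Cre replicate 1 the counts were 0, 0 and 2, beside 0%, 2.67% and 7.90%, and without replicate 2 they were 0, 0 and 1, beside 0%, 7.39% and 15.2%. The median RP difference in fold was −0.03, 0.08, −0.03, 0.07 and 0.04 for the 5 comparisons in the order of the centring shifts above, and −0.01 for the interaction, beside −0.04, −0.06, −0.03, −0.04, −0.08 and 0.02 over all genes.

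**Figure D4:**
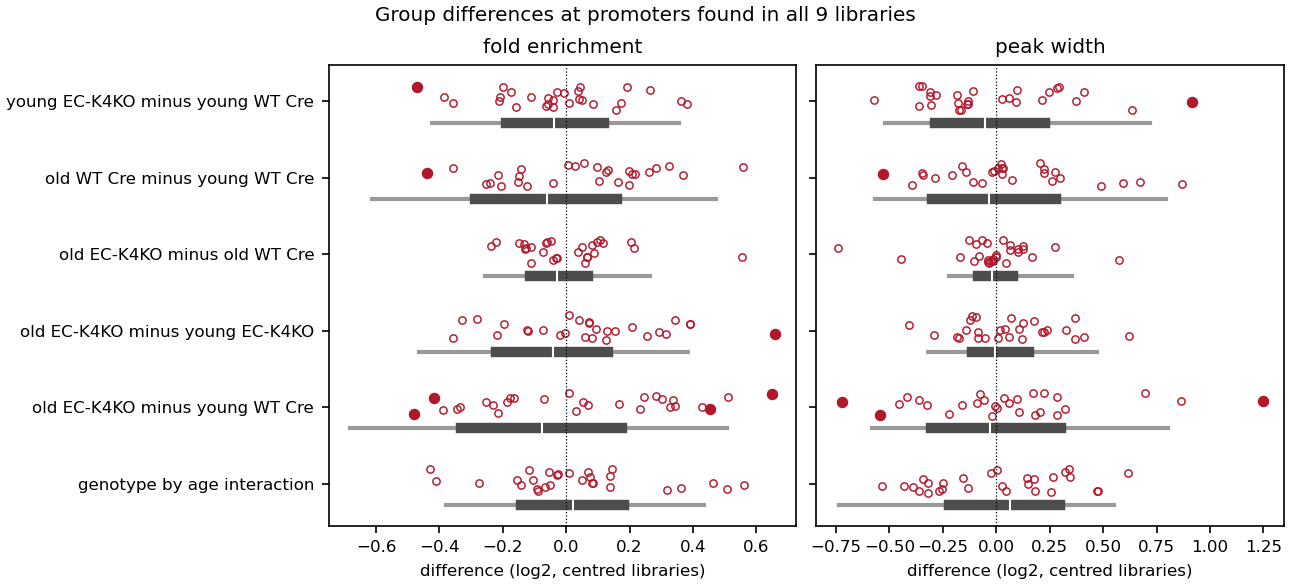
Differences in fold enrichment (left) and peak width (right) between groups (x axis, log2, libraries centred on the median of shared genes) for the 28 RP genes (red circles, filled where adjusted p is under 0.05) in each comparison (y axis). Grey bars give the 5% to 95% range of all 3265 genes, dark bars the middle 50% and the white line the median. RP medians lie within 0.13 of 0 in each comparison, and Rps6 is the rightmost gene in fold for old minus young EC-K4KO at 0.66.

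Rps6 had the largest difference in fold among RP genes in both comparisons of old EC-K4KO with a young group. RPS6 is the small subunit protein phosphorylated by the S6 kinases downstream of mTOR. Its fold was 4.90 and 5.12 in young WT Cre, 5.24, 8.96 and 7.82 in young EC-K4KO, 8.31 and 9.33 in old WT Cre and 14.6 and 14.9 in old EC-K4KO. Relative to the library median these were ratios of 0.945 and 0.925, 0.944, 0.986 and 0.863, 0.968 and 1.03, and 1.43 and 1.505, so both old EC-K4KO libraries lay above all others. Rps6 rose by 0.66 ± 0.12 (standard error) from young to old EC-K4KO (limma adjusted p = 0.0106) and by 0.65 ± 0.13 from young WT Cre to old EC-K4KO (adjusted p = 0.00521). The difference of old EC-K4KO from old WT Cre was 0.55 ± 0.13 (adjusted p = 0.954) and the interaction 0.56 ± 0.17 (adjusted p = 0.376), and neither passed. With log2 of −log10 p in place of fold neither call passed in limma, with differences of 0.40 (adjusted p = 0.183) and 0.07 (adjusted p = 0.861). Without centring the first was 1.04 and did not pass (adjusted p = 0.140). Leaving out either old EC-K4KO library ended both calls of Rps6 in fold, and the call against young WT Cre was also lost without young WT Cre replicate 1. Over all single libraries left out the differences stayed between 0.59 and 0.70 and between 0.58 and 0.69.

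Relative to the library median, the Rps6 peak was also shorter in old EC-K4KO than in young WT Cre, though not in bp. Its width was 375 and 394 bp in young WT Cre, 391, 510 and 577 bp in young EC-K4KO, 620 and 688 bp in old WT Cre and 419 and 414 bp in old EC-K4KO. The old EC-K4KO peak ended 129 and 127 bp upstream of the start, and the old WT Cre peak 369 and 346 bp upstream. Relative to the median, Rps6 width fell by 0.72 ± 0.15 from young WT Cre to old EC-K4KO (adjusted p = 0.0244), a difference that was 0.12 in the other direction without centring and did not pass without either old EC-K4KO library (−0.83 to −0.72). The width difference of old EC-K4KO from old WT Cre was −0.74 ± 0.15 and did not pass (adjusted p = 0.749). The part of the width in the fold, which is an average over the peak, was not tested. Across genes the difference in fold between old EC-K4KO and old WT Cre had a Pearson correlation with that in width of −0.38 over the 3265 genes and −0.63 over the 28 RP genes, given as a description because all points share the same 4 libraries. The old EC-K4KO libraries were also those with most pericyte and mural markers, 5 and 4 of 8, and the part of such cells in the Rps6 values was not tested.

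Rps29 and Rps16, both of the small subunit, were among the genes that differed between young WT Cre and old EC-K4KO. Rps29 had a fold of 6.35 and 7.60 in young WT Cre, 6.70, 10.2 and 9.63 in young EC-K4KO, 8.69 and 9.17 in old WT Cre and 9.86 and 9.66 in old EC-K4KO. It fell by 0.42 ± 0.13 relative to the median from young WT Cre to old EC-K4KO (adjusted p = 0.0307), and was 0.49 higher without centring. Rps16 had 4.79 and 5.03, 5.86, 10.5 and 12.1, 9.73 and 11.1, and 12.6 and 12.7, and rose by 0.46 ± 0.14 (adjusted p = 0.0289), with the young WT Cre libraries below all others. Rps16 did not pass when either old EC-K4KO or either young WT Cre library was left out, and Rps29 when either old EC-K4KO library or young WT Cre replicate 2 was. With log2 of −log10 p neither passed, at 0.58 for Rps16 (adjusted p = 0.0611) and −0.31 for Rps29 (adjusted p = 0.301). Over all single libraries left out the differences ranged from 0.38 to 0.48 for Rps16 and from −0.59 to −0.34 for Rps29.

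**Figure D5:**
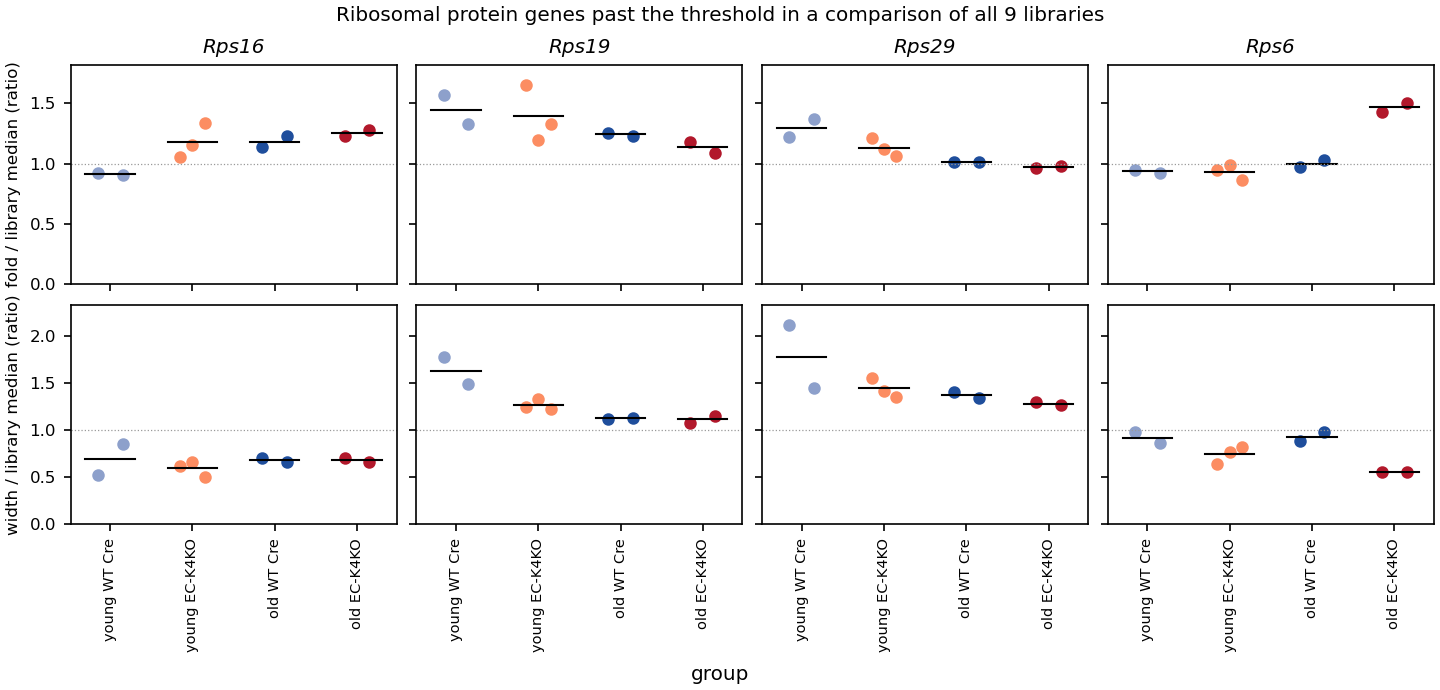
Fold (top) and width (bottom) of the promoter peak divided by the library median over shared genes (y axis, ratio) in each library (points, coloured by group on the x axis, bars at the group mean) for Rps16, Rps19, Rps29 and Rps6, which passed in a comparison of all 9 libraries. Rps6 fold is 1.43 and 1.505 in old EC-K4KO and at most 1.03 in the other libraries; the lower fold ratio of Rps29 in old EC-K4KO is reversed as a difference when libraries are not centred, as is the lower width of Rps19 and of Rps6.

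Width passed for few RP genes. From young WT Cre to young EC-K4KO 1 of 28 passed in limma, beside 12.8% of all genes. From young to old WT Cre 1 passed, beside 11.7%, and this was Rps19, with a peak of 682 and 684 bp in young WT Cre and 785 and 799 bp in old WT Cre. It fell by 0.53 ± 0.12 relative to the median (adjusted p = 0.0367) and was 0.21 higher without centring. From young WT Cre to old EC-K4KO 3 passed, beside 13.9%, among them Rps6 as given above and Rps19, which fell by 0.55 ± 0.12 relative to the median (adjusted p = 0.0308) and was 0.29 higher without centring. Without young WT Cre replicate 1, 6, 8 and 10 RP genes passed in width in these same 3 comparisons, taken as young EC-K4KO, old WT Cre and then old EC-K4KO, beside 14.3%, 16.9% and 20.3% of all genes. Without young WT Cre replicate 2 the counts were 8, 3 and 4, beside 26.2%, 26.4% and 27.3%, and without either old EC-K4KO library none passed, beside 0.183% to 1.41%. The Rps19 peak, with 813 and 858 bp in old EC-K4KO, lay mostly upstream of the start in all libraries. The width calls of Rps19 were lost without either old WT Cre, either old EC-K4KO library or young EC-K4KO replicate 2, and the call in old WT Cre also without young EC-K4KO replicate 3 (−0.67 to −0.51 in old WT Cre, −0.69 to −0.50 in old EC-K4KO). Both were also lost with quantile normalization (−0.40 and −0.41, adjusted p = 0.0779 and 0.0643).

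The remaining width comparisons gave no RP gene in limma. None passed between old EC-K4KO and old WT Cre, beside 0% of all genes, with 2 RP genes and 62 of all genes at an unadjusted p under 0.05. None passed from young to old EC-K4KO, beside 0.0919%, with 3 RP genes and 265 of all genes at an unadjusted p under 0.05, and none for the interaction, beside 0.184%, with 1 and 516. Median RP differences in width were −0.13 and 0.03 for young EC-K4KO and old WT Cre against young WT Cre, −0.02 for old EC-K4KO against old WT Cre, 0.05 and 0.02 for old EC-K4KO against young EC-K4KO and young WT Cre, and 0.02 for the interaction.

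Among RP genes that did not pass, the widest differences belonged to a few. In fold, Rps26 differed by 0.38 ± 0.21, 0.56 ± 0.23 and 0.51 ± 0.23 in young EC-K4KO, old WT Cre and then old EC-K4KO from young WT Cre (adjusted p = 0.321, 0.0973 and 0.108), and Rps7 by −0.38 ± 0.13 in young EC-K4KO (adjusted p = 0.105). In old against young EC-K4KO, Rplp1 differed by 0.39 ± 0.15 (adjusted p = 0.127), Rpl13a by −0.36 ± 0.12 (adjusted p = 0.0907) and Rpl10 by −0.33 ± 0.13 (adjusted p = 0.132). Between the old groups Rpl27 differed by −0.24 ± 0.16, Rpl13a by −0.22 ± 0.13 and Rpl22l1 by 0.21 ± 0.16, each with an adjusted p of 0.997. These differences did not pass the threshold. In width, Rpl17 differed from young WT Cre by 0.87 ± 0.31 in both old groups (adjusted p = 0.107 and 0.102), Rpsa by −0.57 ± 0.23 in young EC-K4KO (adjusted p = 0.141) and Rps7 by 0.64 ± 0.28 (adjusted p = 0.169).

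More RP genes could be tested without the young WT Cre lists. This fit, chosen after seeing the data, held 58 RP genes among 6865. Between old EC-K4KO and old WT Cre none passed in fold, beside 0% of all genes, with 1 RP gene and 373 of all genes at an unadjusted p under 0.05. From young to old EC-K4KO 3 passed, beside 12.1%. From young EC-K4KO to old WT Cre none passed in limma, beside 4.40%, with 8 RP genes and 1665 of all genes at an unadjusted p under 0.05, and the nearest were Rpl13 with 0.56 ± 0.16 (adjusted p = 0.0697) and Rpl29 with 0.44 ± 0.13 (adjusted p = 0.0746). In width none passed in these 3 comparisons, beside 0.0728%, 0.0146% and 0.175% of all genes, with 5, 11 and 4 RP genes and 230, 837 and 915 of all genes at an unadjusted p under 0.05.

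The 3 were Rps6, Rpl35a and Rpl13a. Rpl35a, of the large subunit, had a fold of 3.10, 6.11 and 6.56 in young EC-K4KO, 7.24 and 7.82 in old WT Cre and 9.83 and 11.0 in old EC-K4KO. It rose by 0.53 ± 0.14 from young to old EC-K4KO (adjusted p = 0.0313), with no overlap between the groups. Rps6 rose by 0.51 ± 0.13 (adjusted p = 0.0314). Rpl13a had 6.61, 10.5 and 11.2, 9.28 and 9.85, and 8.78 and 9.98, and fell by 0.51 ± 0.13 relative to the median (adjusted p = 0.0308), a difference of 0.03 in the other direction without centring. None of the 3 passed when young EC-K4KO replicate 2 or either old EC-K4KO library was left out.

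Other genes of the translation machinery were listed for comparison. Their counts can be read against the shares of all genes given for each comparison above, and all values are relative to the median. Of 12 mitochondrial ribosomal protein genes tested, 1 rose in fold from young WT Cre to young EC-K4KO, Mrpl45 with 0.61, and 2 from young to old WT Cre, Mrpl45 with 0.90 and Mrpl54 with 0.69. From young to old EC-K4KO 1 rose, Mrpl11 with 0.84. In old EC-K4KO against young WT Cre 2 rose and 2 fell, the latter Mrpl41 with −0.46 and Mrps18b with −0.44. Of 11 translation factors and other TOP mRNA genes tested, 1, 2 and 3 fell from young WT Cre to young EC-K4KO, old WT Cre and then old EC-K4KO. In each comparison Eef1a1, which delivers aminoacyl-tRNA to the ribosome, was among them and fell by 0.73, 0.80 and 0.79 (limma adjusted p = 0.0135, 0.00465 and 0.00305). Of 5 ribosome biogenesis genes tested, Ncl fell by 0.54 from young WT Cre to old EC-K4KO (adjusted p = 0.0118).

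Sequence around RP start sites was described from RefSeq promoters of 300 bases, 250 before and 50 after the start, which were found for 64 of the 85 genes. Rplp1, Rpl17, Rpl21, Rpl30 and Rps29 were among the 21 not matched. A TOP-like tract, here a C followed by at least 5 C or T on the gene strand and beginning within 10 bases of the start, was present in 31 RP promoters (48.4%), beside 23.3% of 60 mitochondrial ribosomal protein promoters and 19.2% of all 27025 promoters. In the stretches above it is seen at the start of Rps6 and Rpl13a, and also in those of Rps26 and Rps27l. The RP promoters had a median GC content of 57.5% and a CpG observed over expected ratio of 0.873, beside 52.7% and 0.389 for all promoters and 62.3% and 0.807 for 5342 promoters of genes with a peak in the 7 libraries other than young WT Cre.

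Motifs were searched as exact letters on both strands. The motif TCTCGCGA was in 10 RP promoters (15.6%), those of Rpl12, Rpl26, Rpl27a, Rpl35, Rpl7a, Rps15a, Rps19, Rps28, Rps3a1 and Rps6, beside 2.94% of the 5342 promoters with a peak and 1.08% of all. In the stretch of Rps19 it occurs as TCTCGCGA and again in TCTCGCGAGA, where the matches on both strands overlap, and in Rps6 as TCTCGCGAGA. The ETS motif CCGGAAG was in 37.5% of RP promoters, beside 19.7% and 9.12%, and AAGATGG, bound by YY1, in 14.1%, beside 7.36% and 6.48%. Both are more frequent in RP promoters than among promoters with a peak, and so they are in the 60 mitochondrial ribosomal protein promoters, with 33.3% and 20%.

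Other motifs were no more frequent than among promoters with a peak, except TATAAA, the TATA box, which was in 9.38% of RP promoters, beside 5.43% of promoters with a peak and 14.2% of all. GGGCGG, the GC box of SP and KLF factors, was in 59.4%, beside 72.5% and 35.9%, and CCACACCC, a longer KLF site, in 3.13%, beside 4.06% and 3.57%. GCGCATGC of NRF1 was in 3.13%, beside 6.78% and 2.80%, CCAAT in 32.8%, beside 41.1% and 37.9%, and CACGTG, the E box, in 7.81%, beside 10.8% and 7.24%. A match describes the letters only and does not show binding. Among the 45 RP genes with both a sequence and a promoter peak in the 7 libraries, the median rank was 35.0 for the 30 with a GC box and 55.1 for the 15 without, and 39.1 for the 16 with an ETS motif and 50.1 for the 29 without. It was 39.7 for the 21 with a TOP-like tract and 50.9 for the 24 without. The order was the other way for YY1, with 67.1 for the 7 genes with the motif and 39.8 for the 38 without, and for CCAAT, with 44.96 for 18 and 39.7 for 27. All these are given as a description with no test.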

How the data were processed

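Omni-ATAC-seq peak lists of 9 libraries in 4 groups were analysed. The groups and replicate numbers came from the labels. According to its methods, adapters were removed by TrimGalore, alignment to mm10 used Bowtie2, only unique, well-mapped read pairs were kept by the authors, and MACS2 was run in its broad mode on whole fragments. The names of the peaks show that each library was called separately, and annotation with HOMER gave the nearest TSS and its distance from the centre of the peak. The deposited lists give, per peak, a fold ratio over the local background, −log10 p and −log10 q, and a score that equals 10 times −log10 q to within 1. All are averaged over a broad peak, so they depend on depth and width. The deposited peaks numbered 253457.

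Each gene was given its strongest promoter peak within 1000 bp. log2 fold and log2 width were centred on the median of genes with a promoter peak in all 9 libraries and fitted in limma 3.58.1 (R 4.3.3) with 1 mean per group, and p-values were adjusted by Benjamini-Hochberg per comparison. The study tested read counts, which are not used here. Tables and figures used Python 3.11.15, pandas 2.3.3, numpy 2.4.6 and matplotlib 3.10.9. The fit was tested on simulated data, where it found most of the larger changes and none of the smaller ones. Genes that did not pass may therefore still differ. TSS positions, promoters and snoRNA genes came from RefSeq (GRCm38.p6).

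The RP genes and the other lists were chosen with earlier results of these data known. Named RP genes were the P-stalk genes and Rpsa, the 6 strongest and 6 weakest by rank, those that lacked a peak in a library, those past 0.05, the 2 highest and 2 lowest differences per comparison, of which the main ones are given, and the 3 longest and 3 shortest peaks. Alternatives were the window (500 and 3000 bp), a −log10 q of at least 2, equal list length, assignment by position, the peak nearest the TSS, ranking by fold, centring, quantile normalization, an intensity trend, −log10 p, a replicate block and single libraries left out. Assignment by position in the fits and the fit without the young WT Cre libraries were added after seeing the data. Values of some RP genes are not reported here, though the counts and medians include them.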

Additional observations from a re-analysis of the deposited data

How the results depend on the processing

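Over the alternatives, 7 RP calls gave 131 values, of which 92 kept the call, 35 lost it with the same direction and 4 changed direction. Without centring, Rps29 fold in old EC-K4KO minus young WT Cre was 0.49, Rps19 width 0.21 and 0.29 in the old WT Cre and the old EC-K4KO groups against young WT Cre, and Rps6 width 0.12 in the latter. All these are opposite in sign to the centred values.

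Presence of RP promoter peaks depended on list length and on names. With 6157 peaks in every list the differences were −1.5 genes for old EC-K4KO minus old WT Cre, and 7.17, 9.5 and 8 against young WT Cre for young EC-K4KO, old WT Cre and then old EC-K4KO. By position the first was 0.5, against −0.5 by name. The RP share minus the all-gene share, in percentage points, was 28.3, 32.4 and 30.9 at equal length in young EC-K4KO, old WT Cre and then old EC-K4KO, and 42.5, 42 and 39.0 by position. With −log10 q of at least 2 it was 37.7 and 34.1 in the old groups, and with a window of 3000 bp 31.6 and 27.9. The median rank of RP genes among shared promoters was 43.7, 42.6 and 35.5 by fold in these 3 groups, 46.0 and 48.5 in the old groups with a window of 500 bp, and 44.1, 38.2 and 39.6 without the young WT Cre libraries, chosen after seeing the data. Leaving out single libraries it ranged from 42.9 to 51.2 in young WT Cre, 42.3 to 45.2 in old WT Cre and 43.5 to 47.3 in old EC-K4KO.

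Counts of calls in fold follow, for RP and all genes. Without centring, against young WT Cre, 0 and 2 passed in young EC-K4KO, 17 and 1452 in old WT Cre and 23 and 2320 in old EC-K4KO, and 0 and 0 in old minus young EC-K4KO. Quantile normalization gave 0 and 346 in old WT Cre, and 110 over all genes in old minus young EC-K4KO. With log2 of −log10 p, 2 and 208, 2 RP genes, and 2 and 435 passed against young WT Cre, and 0 RP genes in old minus young EC-K4KO. No RP gene passed in young EC-K4KO minus young WT Cre with an intensity trend, a window of 500 bp, the peak nearest the TSS or names by position. In old minus young EC-K4KO 2 RP genes passed with a window of 3000 bp or by position, and 3 and 831 without the young WT Cre libraries. By position 2 RP genes passed in old minus young WT Cre. Leaving out single libraries, the counts ranged from 0 to 5 and 0 to 535 in young EC-K4KO, 0 to 4 and 55 to 955 in old WT Cre and 0 to 9 and 104 to 1146 in old EC-K4KO against young WT Cre, 0 to 2 and 3 to 377 in old minus young EC-K4KO, and over all genes 0 to 3 between the old groups and 0 to 4 for the interaction.

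In width, without centring, 17 and 1973, 24 and 2264, and 25 and 2629 passed against young WT Cre, 3 and 323 for the interaction and 1 of all genes between the old groups. Quantile normalization gave 0 and 71 and 0 and 111 in young EC-K4KO and old WT Cre against young WT Cre, and 2, 10 and 10 of all genes between the old groups, in old minus young EC-K4KO and for the interaction. For these last 3, over all genes, a window of 3000 bp gave 2, 10 and 15. A −log10 q of at least 2 gave 7 and 3 for the last 2, a window of 500 bp 2 for the interaction and names by position 18. Without the young WT Cre libraries 5 and 1 of all genes passed in the first 2. Leaving out single libraries, the counts ranged from 0 to 8 and 28 to 926, 0 to 8 and 12 to 932, and 0 to 10 and 6 to 972 against young WT Cre, 0 to 3 of all genes between the old groups, 0 to 7 in old minus young EC-K4KO, and 0 to 1 and 1 to 186 for the interaction. A group left with 1 library was assumed to vary like the others. The causes of these changes were not tested.

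The labels give replicate numbers shared between groups. Deviations of same-numbered libraries correlated at −0.0076 to 0.19 in fold and −0.044 to 0.067 in width over 12 pairs each, so the numbers were not taken to pair the libraries. With a replicate block, 0 and 4 genes passed in fold in young EC-K4KO minus young WT Cre, and 3 and 375 in old minus young EC-K4KO. In width 0 and 5, 0 and 52, and 1 and 36 passed against young WT Cre, and 0 of all genes in old minus young EC-K4KO and for the interaction. The block ended the width calls of Rps6 (limma adjusted p = 0.0636) and Rps19 (0.0843 in old EC-K4KO and 0.0955 in old WT Cre). The remaining counts in fold with the block were within 1.5 times those without it. Depth is unknown, so the shorter young lists limit which RP genes could be compared at all, and absence from a list does not show closed chromatin.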
